A study of Mus musculus with 4 samples.

Results

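The genes described here encode subunits of the NMDA receptor, a glutamate-gated cation channel of the synapse. They are *Grin1*, *Grin2a*, *Grin2b*, *Grin2c*, *Grin2d* and *Grin3a*, 6 of the 12700 genes with counts, and were chosen as the Grin genes whose gene identifiers were present in the count table. The table holds only genes covered over enough of their length, by the filter of the authors, and *Grin3b*, the other GluN3 gene, was not analysed here. All 6 members had at least 343 reads in every library, and no further filter was applied to them.

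RNA was sequenced from the brain of C57BL/6 mice at 9 months of age, either Ids-ko (labelled Ids-/-), the model of Hunter syndrome lacking the lysosomal enzyme iduronate 2-sulfatase, or their wild type (wt) littermates, with no treatment named. Both areas were dissected from each of 7 Ids-ko and 7 wt brains and the RNA was pooled into 4 libraries, so CxH and MH come from the same mice, as do CxWT and MWT. CxH and CxWT are the cerebral cortex (neocortex) of Ids-ko and wt mice, and MH and MWT are the M area of Ids-ko and wt mice, in which the study placed the midbrain, the hippocampus and the diencephalon with hypothalamus, thalamus and striatum. With 1 pool per condition, a difference between libraries has no replicate check, and the errors given cover counting only. In such bulk tissue, fewer cells of a type and less RNA per cell cannot be told apart.

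An NMDA receptor is a tetramer of GluN1 subunits, which bind glycine or D-serine, with GluN2 subunits, which bind glutamate. The GluN2 subunit sets the kinetics and magnesium block: GluN2A and GluN2B prevail in the adult forebrain, GluN2C is best known from cerebellar granule cells and is also found in thalamus and astrocytes, and GluN2D belongs mainly to diencephalon, midbrain and interneurons. GluN3A binds glycine and lowers the calcium permeability of the channels that contain it.

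The members are related genes, so reads had to be assigned to a single one of them. Over the coding sequences of GENCODE vM1 (mm9), the aligned bases of the GluN2 pairs were identical at 63.5% (*Grin2a* and *Grin2d*) to 68.2% (*Grin2c* and *Grin2d*), against 59.1% to 61.4% for *Grin3a* with the others. The longest run of identical bases in any pair was 34, between *Grin2b* and *Grin2c*. The genes all lie on the minus strand of mm9, at chr2:25146701-25174707 (*Grin1*), chr16:9577803-9995014 (*Grin2a*), chr6:135679844-136123529 (*Grin2b*), chr11:115110483-115128557 (*Grin2c*), chr7:53087253-53126298 (*Grin2d*) and chr4:49674483-49858616 (*Grin3a*). *Grin1* shares 1307 exon bases with E130003G02Rik on the opposite strand, and since no source used here says whether counting used strand, reads of the pair cannot be told apart. *Grin2b* and *Grin2c* overlap antisense exons by at most 143 bases.

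Before the subunits, the libraries were checked against their labels. *Ids*, the targeted gene on chromosome X (chrX:67596244-67618260), had 135 reads per 1000000 aligned reads (RPM) in CxH and 354 in CxWT, a log2 ratio of -1.39 ± 0.024 (counting SE). In the M area the order was opposite, with 368 RPM in the library labelled MH and 155 in MWT, a log2 ratio of 1.24 ± 0.025. *Ids* therefore goes against the genotype label in M, and it checks a label only as far as the deletion covers the counted exons, which the sources used here do not give. Reads on genes ranged from 16380080 in MWT to 23475080 in CxH. All 4 libraries are named below by their labels only, and every direction, in the cortex as in M, is one between libraries labelled so.

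Region markers also grouped the libraries in a way that crosses the area labels. The 15 markers of cortical excitatory neurons summed to 2753 RPM in CxH and 2450 in the library labelled MH, against 561 in CxWT and 476 in MWT. The 18 measured markers of midbrain, hypothalamus and monoamine neurons ran the other way, at 21.5 and 23.4 RPM in CxH and MH against 307 and 250 in CxWT and MWT. *Slc6a3*, the dopamine transporter of midbrain neurons, had 16 reads in CxH and 19 in MH, against 1895 in CxWT and 1440 in MWT. *En1*, a midbrain transcription factor, had 1 and 0 reads against 273 and 126 in the same libraries, and *Pax7* had 0 and 2 against 125 and 85. The thalamus and diencephalon list summed to 118 RPM in CxH and 144 in MH, and to 808 and 729 in CxWT and MWT. *Slc6a3*, *En1* and *Pax7* were thus near 0 in MH, which is labelled as holding midbrain, and had 125 to 1895 reads in CxWT, which is labelled as neocortex. Others of the list were lower in MH but not near 0, such as *Th* with 178 reads against 941 in MWT, and *Gata2*, with 127 against 96 reads, had a log2 ratio of 0.035 in MH vs. MWT. What part this has in the subunit values was not tested, and it stands beside each comparison of an Ids-ko with a wt library below. *Ids* paired the libraries otherwise, with CxH and MWT low and CxWT and MH high. Whether labels or tissues were exchanged was not tested. With 1 library per condition, no subunit difference can be assigned to genotype rather than to tissue content or an exchange. This holds in CxH vs. CxWT as much as in MH vs. MWT.

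**Figure D1:**
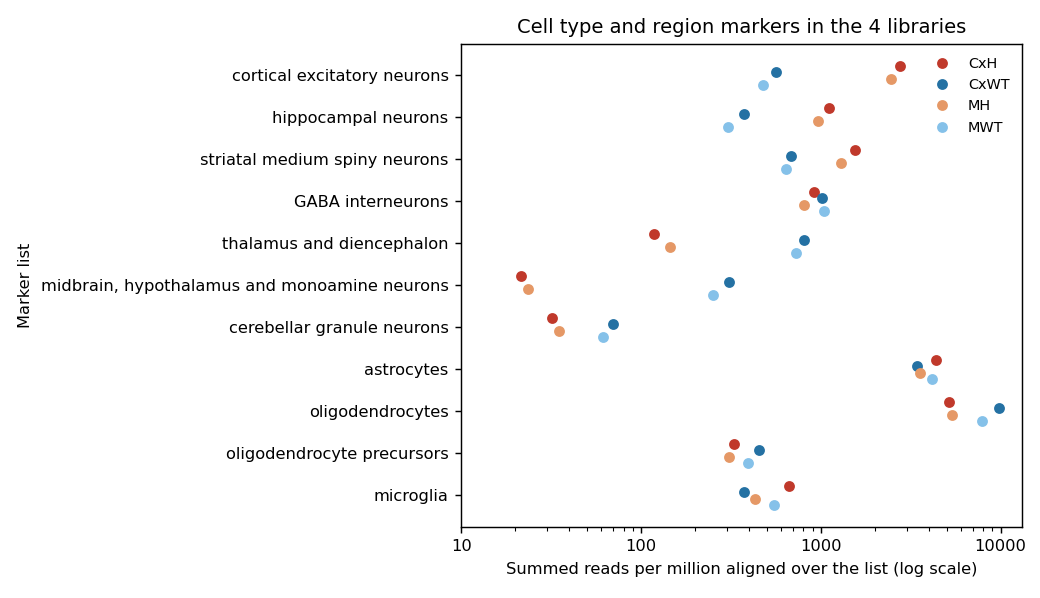
Summed level of each marker list in RPM (log scale) for each of the 4 libraries, 1 point a library. CxH and MH sit together at the cortical end (2753 and 2450 RPM for cortical excitatory neurons) and CxWT and MWT at the thalamic and midbrain end (307 and 250 RPM for the midbrain list).

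*Grin1*, which encodes the obligatory GluN1 subunit, was by far the most abundant member. It had 14147 reads in CxH and 12977 in MH, against 9577 in CxWT and 5131 in MWT, which is 367 and 347 RPM against 285 and 177. By reads it stood at rank 210 of all genes in CxH and 212 in MH, and at rank 286 in CxWT and 514 in MWT. The MWT library was the low one, and the other three lay within 285 to 367 RPM.

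*Grin2a* and *Grin2b*, the forebrain GluN2 subunits, were high in CxH and MH and low in CxWT and MWT. *Grin2a* had 1534 reads in CxH and 1551 in MH, against 529 in CxWT and 352 in MWT, which is 39.8 and 41.5 RPM against 15.7 and 12.2. *Grin2b* had 2283 and 1923 reads in CxH and MH against 826 and 518 in CxWT and MWT, which is 59.3 and 51.5 RPM against 24.6 and 17.9. For each gene the lower of the CxH and MH levels was more than 2 times the higher of the CxWT and MWT levels, so CxH and MH stood on one side and CxWT and MWT on the other. This is the split of the genotype labels, and it is also that of the region markers above, so genotype and tissue content cannot be told apart here.

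*Grin2c* followed *Grin1* more than it followed the other GluN2 genes. It had 1911 reads in CxH, 1701 in MH and 1358 in CxWT, or 49.6, 45.5 and 40.4 RPM, and 541 reads or 18.7 RPM in MWT. Only MWT stood apart.

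*Grin2d* and *Grin3a* had the opposite order. *Grin2d*, the diencephalic and midbrain GluN2 subunit, had 389 reads in CxH and 343 in MH, against 993 in CxWT and 436 in MWT, which is 10.1 and 9.18 RPM against 29.5 and 15.1. *Grin3a*, the GluN3 subunit, had 395 and 509 reads in CxH and MH against 797 and 614 in CxWT and MWT, which is 10.3 and 13.6 RPM against 23.7 and 21.2. Both were lowest in CxH and MH, and *Grin2d* was highest in CxWT by a wide margin.

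**Figure D2:**
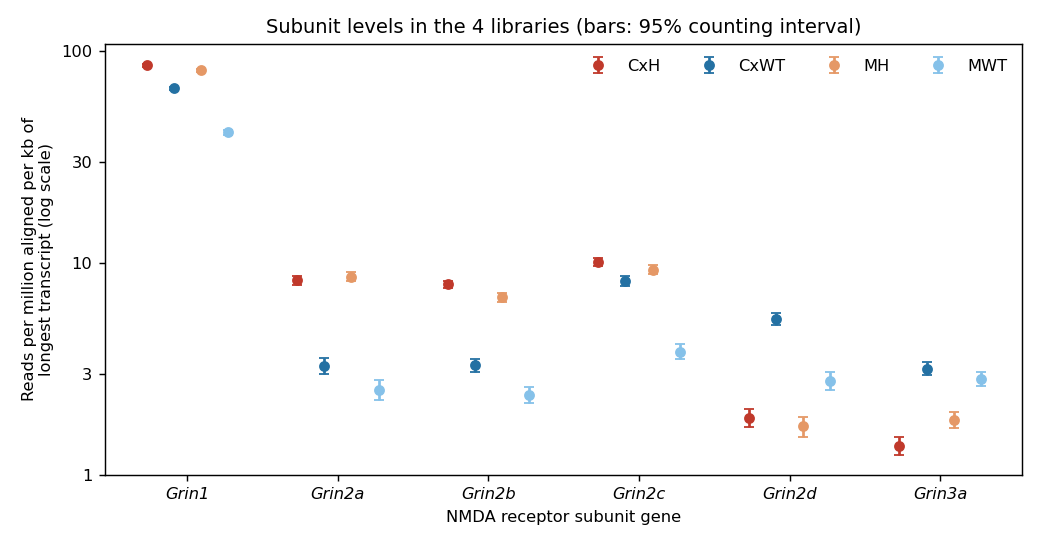
Level of each subunit gene in the 4 libraries, in RPM per kilobase of the longest protein-coding transcript (log scale), with 95% exact counting intervals. *Grin2a* and *Grin2b* are high in CxH and MH, *Grin2d* and *Grin3a* are high in CxWT and MWT, and *Grin1* lies above all others in each library.

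Levels were compared between genes per kilobase of the longest protein-coding transcript. *Grin1* came first in every library, at 85.9 RPM per kilobase in CxH, 81.2 in MH, 66.6 in CxWT and 41.5 in MWT, and on this length *Grin2c* came next, at 10.1, 9.30, 8.25 and 3.82. In CxH the order went on with *Grin2a* at 8.27 and *Grin2b* at 7.92, whose 95% intervals overlapped, then *Grin2d* at 1.86 and *Grin3a* at 1.37. In CxWT it went on with *Grin2d* at 5.44, and then *Grin2b* at 3.28, *Grin2a* at 3.26 and *Grin3a* at 3.16, which did not differ beyond counting error. In MH *Grin2a* at 8.61 overlapped *Grin2c*, *Grin2b* followed at 6.88, and *Grin3a* at 1.82 and *Grin2d* at 1.69 overlapped. In MWT each neighbour after *Grin2c* overlapped the next, from *Grin3a* at 2.83 and *Grin2d* at 2.77 to *Grin2a* at 2.52 and *Grin2b* at 2.39. The order below *Grin1* depends on the length used. Per kilobase of coding sequence, *Grin2b* and *Grin2c* took 7.89% and 7.90% of the 6 subunits in CxH, and in MWT *Grin3a* at 7.46% ± 0.29 stood above *Grin2c* at 6.03% ± 0.25. By reads alone, *Grin2b* stood above *Grin2c* in CxH (11.1% and 9.25%) and in MH (10.1% and 8.95%). *Grin2d* thus moved from near the bottom of the order in CxH and MH to a place above *Grin2a* and *Grin2b* in CxWT.

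The share of *Grin1* in the summed subunit level lay in a narrow range while the composition of the rest differed more. Per kilobase of the longest transcript, *Grin1* made up 74.4% ± 0.29 (counting SE) of the 6 subunits in CxH, 74.2% ± 0.30 in MH, 74.0% ± 0.35 in CxWT and 74.3% ± 0.47 in MWT. Among reads with no division by length, its share was 68.5% (95% Clopper-Pearson interval 67.8 to 69.1), 68.3% (67.6 to 68.9), 68.0% (67.2 to 68.8) and 67.6% (66.5 to 68.6), so the intervals of all libraries overlapped. Per kilobase of coding sequence CxH and MH stood slightly higher, at 75.5% ± 0.28 and 75.3% ± 0.29 against 74.2% ± 0.35 in CxWT and 73.8% ± 0.48 in MWT. The summed level of the 6 genes over the same libraries was 537, 509, 419 and 262 RPM. The ratio of *Grin1* to the sum of the GluN2 subunits per kilobase was 3.05 in CxH, 3.07 in MH, 3.29 in CxWT and 3.60 in MWT. The 95% counting interval of MWT, 3.41 to 3.80, lay above those of CxH and MH. That of CxWT, 3.168 to 3.420, did so narrowly, the interval of MH ending at 3.167. With the median transcript length the interval of CxWT overlapped those of CxH and MH. A share within a library does not depend on how libraries are scaled to each other. Shares and ratios within a library were not corrected for GC content and length, however, and that correction moved the members unequally. In MH vs. MWT it took the log2 ratio of *Grin1* from 0.97 to 0.35 and that of *Grin2d* from -0.71 to -1.82. *Grin2a* moved only from 1.77 to 1.63. Whether the share of *Grin1* would stay in a narrow range after it was not tested.

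Within the GluN2 subunits the mixture differed between libraries. *Grin2d* made up 6.60% ± 0.32 of the GluN2 level per kilobase in CxH and 6.38% ± 0.33 in MH, against 26.9% ± 0.73 in CxWT and 24.1% ± 1.01 in MWT. *Grin2a* made up 29.3% ± 0.61 and 32.5% ± 0.66 in CxH and MH, against 16.1% ± 0.64 and 21.9% ± 1.02 in CxWT and MWT. For *Grin2b* the shares were 28.1% ± 0.53 and 26.0% ± 0.54 against 16.2% ± 0.54 and 20.8% ± 0.85. *Grin2c* held 36.0% ± 0.64 in CxH, 35.1% ± 0.67 in MH, 40.8% ± 0.83 in CxWT and 33.2% ± 1.14 in MWT, with no split by genotype label. *Grin3a* took 1.19% and 1.66% of the 6 subunits in CxH and MH and 3.52% and 5.08% in CxWT and MWT. Per kilobase of coding sequence these shares were 1.78% and 2.50% against 5.22% and 7.46%, in the same order of libraries.

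**Figure D3:**
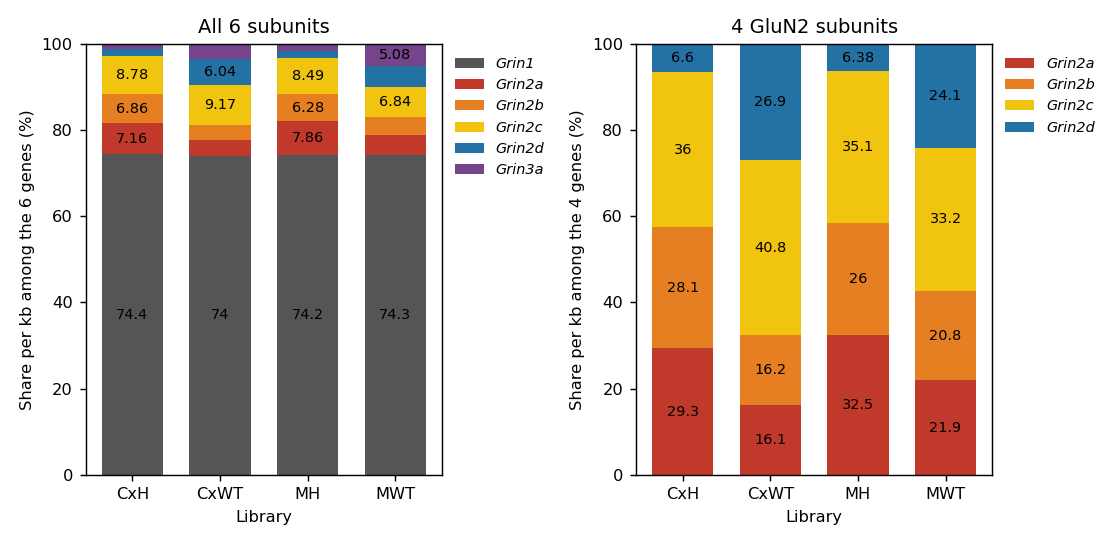
Share of each subunit per kilobase of longest transcript in the summed level of all 6 genes (left) and of the 4 GluN2 genes (right), in percent, 1 bar a library. *Grin1* lies at 74.0% to 74.4% in every library, while *Grin2d* takes 6.60% and 6.38% of the GluN2 level in CxH and MH and 26.9% and 24.1% in CxWT and MWT.

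Ratios of subunits within a library put the same contrast more plainly. *Grin2a* stood at 4.44 times *Grin2d* in CxH (95% counting interval 3.98 to 4.97) and 5.10 times in MH (4.53 to 5.73), but at 0.60 in CxWT (0.54 to 0.67) and 0.91 in MWT (0.79 to 1.05). *Grin2b* to *Grin3a* was 5.79 and 3.78 in CxH and MH and 1.04 and 0.84 in CxWT and MWT. *Grin2a* to *Grin2b*, by contrast, stayed between 0.99 and 1.25 in all libraries. That ratio depends on the length used: per kilobase of coding sequence it was 0.68 in CxH, 0.82 in MH, 0.65 in CxWT and 0.69 in MWT, so which of the pair is more abundant is not settled here, though MH gave the highest ratio on either length, with an interval that overlapped that of MWT.

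The study asked how the Ids-ko brain differs from wt in each area. A gene was called here with the study's own criteria, a log2 ratio of size 0.7 or more and an unadjusted p under 0.05 in a likelihood ratio test on Poisson counts. Such a test compares 2 libraries and not the conditions. In CxH vs. CxWT, 2 members were called higher (9.46% of all genes were) and 2 lower (11.5%). In MH vs. MWT, 4 were called higher (12.3% of all genes) and 1 lower (12.7%). The median log2 ratio of the members was 0.33 in CxH vs. CxWT, against -0.093 over all genes, and 1.13 in MH vs. MWT, against -0.066. Corrected for the GC content and length of the transcripts, the member medians were -0.031 against -0.082 over all genes, and 0.39 against -0.022. The correction kept 2 members called higher and 2 lower in CxH vs. CxWT, and left 2 higher and 2 lower in MH vs. MWT.

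*Grin2a* and *Grin2b* rose in both areas by the library labels. The log2 ratio of *Grin2a* was 1.34 ± 0.073 (counting SE) in CxH vs. CxWT, 2.53-fold, and 1.77 ± 0.085 in MH vs. MWT, 3.41-fold. Of all genes, 97.0% and 98.2% had a lower ratio. For *Grin2b* the log2 ratios were 1.27 ± 0.059 and 1.52 ± 0.071. Once corrected for transcript length and GC content, the ratios of both stayed above 1, at 1.26 and 1.63 for *Grin2a* and 1.19 and 1.29 for *Grin2b*. The summed markers of cortical excitatory neurons moved with them, with a median log2 ratio of 2.83 and 3.29. Of the 15 markers 12 were called higher in each comparison, against 9.46% and 12.3% of all genes.

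*Grin2d* fell in CxH vs. CxWT, with a log2 ratio of -1.55 ± 0.086, and *Grin3a* fell there with -1.21 ± 0.089. In MH vs. MWT *Grin2d* had -0.71 ± 0.10, just past the threshold, and *Grin3a* -0.64 ± 0.086, just short of it. *Grin2d* had the highest GC content of the members, at 65.0% of its longest transcript, and its ratio moved most with the GC and length correction, to -1.995 in CxH vs. CxWT and -1.82 in MH vs. MWT. With TMM or DESeq2 scaling it was -0.66 and -0.65 in MH vs. MWT and not called. *Grin3a*, at 49.2% GC, had corrected ratios of -1.21 and -0.75. The thalamus and diencephalon markers moved with them. In CxH vs. CxWT 14 of 14 were called lower (11.5% of all genes), and in MH vs. MWT 12 of 14 (12.7%).

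*Grin1* and *Grin2c* were called in 1 of these comparisons. *Grin1* had a log2 ratio of 0.37 ± 0.019 in CxH vs. CxWT, not called, and 0.97 ± 0.024 in MH vs. MWT, called higher. *Grin2c* had 0.30 ± 0.051, not called, and 1.28 ± 0.071, called higher. Their transcripts are GC-rich as well (59.4% and 62.1%), and neither call in MH vs. MWT was kept after the GC and length correction, which gave 0.35 and 0.43. The correction left *Grin1* at 0.038 and *Grin2c* at -0.10 in CxH vs. CxWT, so the direction of *Grin2c* there was not stable.

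**Figure D4:**
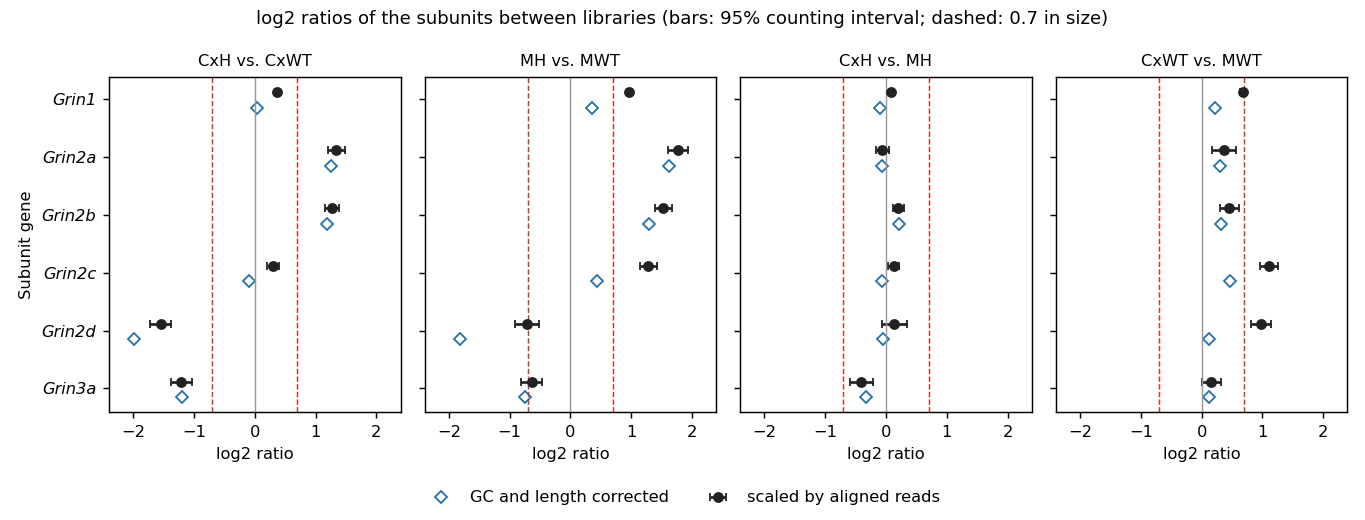
log2 ratio of each subunit between 2 libraries in the 4 comparisons, with 95% counting intervals (filled) and once corrected for transcript length and GC content (open). Dashed lines mark 0.7 in size. *Grin2a* and *Grin2b* lie above 0.7 and *Grin2d* below -0.7 in CxH vs. CxWT and MH vs. MWT on either scale, while *Grin1* and *Grin2c* move inside the lines in MH vs. MWT when corrected.

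With no correction, the log2 ratio of each member was lower in CxH vs. CxWT than in MH vs. MWT. Subtracting the log2 ratio in MH vs. MWT from that in CxH vs. CxWT gave -0.60 ± 0.031 for *Grin1*, -0.43 ± 0.11 for *Grin2a*, -0.25 ± 0.092 for *Grin2b*, -0.99 ± 0.088 for *Grin2c*, -0.83 ± 0.14 for *Grin2d* and -0.57 ± 0.12 for *Grin3a*. These are counting errors, and 1 pool per condition leaves no test of the difference between areas. Corrected for GC content and length, they were -0.32 for *Grin1*, -0.37 for *Grin2a*, -0.11 for *Grin2b*, -0.53 for *Grin2c*, -0.17 for *Grin2d* and -0.45 for *Grin3a*, so those of *Grin2b* and *Grin2d* were within 2 counting SE of 0.

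The remaining comparisons set the areas against each other within a genotype label and share their libraries with the comparisons above. In CxH vs. MH, 0 members were called in either direction, where 2.43% of all genes were called higher and 1.06% lower. All 6 ratios lay between -0.41 and 0.20, and the 95% counting interval left out 0 for *Grin1*, *Grin2b*, *Grin2c* and *Grin3a*, although the GC and length correction turned *Grin1* to -0.10, *Grin2c* to -0.072 and *Grin2d* to -0.049. *Grin3a* stood lowest, at -0.41 ± 0.097, and *Grin2b* highest, at 0.20 ± 0.045. The others were 0.081 ± 0.018 for *Grin1*, -0.059 ± 0.052 for *Grin2a*, 0.12 ± 0.048 for *Grin2c* and 0.14 ± 0.11 for *Grin2d*.

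In CxWT vs. MWT all 6 members were above 0 and 2 were called higher (5.43% of all genes), with 0 called lower (2.11%). *Grin2c* had a log2 ratio of 1.11 ± 0.073 and *Grin2d* 0.97 ± 0.083. *Grin1*, at 0.68 ± 0.025, was just short of the threshold. The rest were 0.37 ± 0.099 for *Grin2a*, 0.46 ± 0.081 for *Grin2b* and 0.16 ± 0.077 for *Grin3a*. The 3 largest ratios belonged to the 3 members with the highest GC content, and the correction took them to 0.46, 0.12 and 0.22, none of them called.

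The directions of calls over all genes depend on the scaling. In CxH vs. CxWT, 1201 genes were called higher and 1457 lower, against 1447 and 1135 with TMM factors and 1429 and 1150 with DESeq2 size factors. In MH vs. MWT 1556 and 1614 became 1774 and 1386 with TMM factors and 1377 and 1896 with column totals. In CxH vs. MH, 309 and 135 became 257 and 183 with column totals and 162 and 116 with the GC and length correction, and in CxWT vs. MWT 690 and 268 became 480 and 390, and 220 and 142. No scaling by totals or factors changed the sign of a member's ratio.

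The partners of the receptor were looked at in fixed lists, 69 of whose 73 genes had counts. Over the lists 23 genes were called higher (9.46% of all genes were) and 6 lower (11.5%) in CxH vs. CxWT. In MH vs. MWT 25 were called higher (12.3% of all genes) and 6 lower (12.7%). Their median log2 ratios were 0.40 and 0.43, against -0.093 and -0.066 over all genes. The same shares over all genes stand beside the count of each list below.

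Scaffold and anchoring proteins, which tie the receptor to the postsynaptic density, were called in 1 direction only. Of its 16 genes 9 were called higher in CxH vs. CxWT and 11 in MH vs. MWT, 0 lower, with median log2 ratios of 0.90 and 1.03, the latter 0.67 once corrected for GC content and length. *Dlgap2*, a postsynaptic density linker protein, was highest in CxH vs. CxWT at 1.94 ± 0.073, and *Shank1*, a master scaffold of excitatory spines, in MH vs. MWT at 2.11 ± 0.034. The lowest were *Nefl*, a neurofilament, at -0.55 ± 0.020 and *Homer2* at 0.22 ± 0.042, neither called. *Dlg4*, chosen for naming after its values were seen because it encodes PSD-95, which binds the GluN2 tails, had 23596 reads in CxH and 17304 in MH, against 9519 in CxWT and 6615 in MWT, with log2 ratios of 1.11 and 1.02.

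Of 11 trafficking genes, 2 were called higher in CxH vs. CxWT and 4 in MH vs. MWT, with median log2 ratios of 0.064 and 0.16, the former 0.31 when corrected. *Neto1*, an auxiliary protein of glutamate receptors, had 1.18 ± 0.068 in CxH vs. CxWT and *Gipc1* had 1.25 ± 0.086 in MH vs. MWT, the highest in each. The other calls were *Lin7b* in both and *Kif17*, the motor that carries GluN2B along dendrites, and *Neto1* in MH vs. MWT. *Snx27*, a recycling sorting nexin, was lowest in both, at -0.30 ± 0.033 and -0.47 ± 0.033, and not called.

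Among 22 kinases, phosphatases and downstream enzymes, 8 were called higher and 2 lower in CxH vs. CxWT, and 8 higher and 0 lower in MH vs. MWT. The median log2 ratios were 0.26 and 0.56, or 0.17 and 0.28 once corrected for GC content and length. *Camk2a*, the calcium/calmodulin kinase that binds GluN2B, had 111566 reads in CxH and 95625 in MH, against 20308 in CxWT and 14256 in MWT, a log2 ratio of 2.38 ± 0.013 in MH vs. MWT. *Ptk2b*, a calcium-activated tyrosine kinase upstream of Src, was highest in CxH vs. CxWT at 2.30 ± 0.033. *Camk2d* was lowest in both, at -1.04 ± 0.047, called, and -0.65 ± 0.046, not called. The other gene called lower in CxH vs. CxWT was *Rasgrf1*, at -0.75.

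The co-agonist list, 12 genes that make, move or break down glycine and D-serine, was mixed. In CxH vs. CxWT 2 were called higher (9.46% of all genes) and 2 lower (11.5%). In MH vs. MWT 1 was called higher (12.3% of all genes) and 4 lower (12.7%). The median log2 ratios were -0.060 and -0.20, the former -0.097 when corrected. *Slc6a9*, the glycine transporter GlyT1, had 2026 reads in CxH and 1703 in MH, against 4882 in CxWT and 2397 in MWT, with log2 ratios of -1.46 and -0.86, both called lower. *Gldc*, which cleaves glycine, was called higher in both, at 1.78 ± 0.099 and 1.42 ± 0.11. *Slc38a5*, an amino acid transporter, had 179 reads in CxH and 72 in CxWT, and 44 in MH and 102 in MWT, and went from 1.12 in CxH vs. CxWT to -1.58 ± 0.26 in MH vs. MWT. *Dao*, which oxidises D-serine, was called lower in both on 7 to 47 reads, and *Gcsh* in MH vs. MWT at -0.94.

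Of 8 genes of glutamate supply and clearance, 2 were called higher and 2 lower in CxH vs. CxWT, and 1 and 2 in MH vs. MWT, with median log2 ratios of 0.22 and 0.012, or 0.38 and 0.23 when corrected. The vesicular glutamate transporters had the highest and lowest ratios of the 69 genes. *Slc17a7* (VGLUT1), used by cortical and hippocampal neurons, had 52335 reads in CxH and 46328 in MH, against 5120 in CxWT and 3119 in MWT. *Slc17a6* (VGLUT2), used by thalamic and midbrain neurons, had 405 and 816 in CxH and MH, against 6988 and 5939 in CxWT and MWT. Their log2 ratios in CxH vs. CxWT were 3.16 ± 0.021 and -4.30 ± 0.074, and in MH vs. MWT 3.52 ± 0.027 and -3.23 ± 0.054. These genes also stand in the cortical and the thalamic marker list. The other calls were *Slc17a8*, lower in both at -1.16 and -1.32, and *Slc1a2*, the main astrocytic glutamate transporter, higher in CxH vs. CxWT at 0.84.

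Within a genotype label, 1 of the 69 partner genes was called higher in CxH vs. MH (2.43% of all genes were), *Slc38a5* at 1.98, and 1 lower (1.06%), *Slc17a6* at -1.05. In CxWT vs. MWT 8 were called higher (5.43% of all genes) and 1 lower (2.11%). The higher ones were *Dlgap3*, *Shank1*, *Shank2*, *Shank3*, *Nefl*, *Gipc1*, *Rasgrf1* and *Slc6a9*, at 0.72 to 1.34, and the lower one was *Slc38a5* at -0.72.

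Other marker lists give the cell content beside which the subunits were measured. Of all genes, 9.46% and 12.3% were called higher and 11.5% and 12.7% lower, in CxH vs. CxWT and MH vs. MWT. In CxH vs. CxWT and MH vs. MWT, 6 and 10 of 13 hippocampal markers were called higher and 1 and 0 lower (*Prox1* at -1.07). Of 14 striatal medium spiny neuron markers 10 and 10 were called higher and 1 and 2 lower (*Foxp2* at -1.05 and -1.37, and *Tac1* at -0.96). Interneuron markers, 12 genes, had 7 and 6 called higher and 1 and 3 lower (*Gad2* at -1.22 and -1.26, *Gad1* at -0.71 and *Pvalb* at -1.19), with summed levels of 810 to 1041 RPM in all libraries. Of 18 midbrain, hypothalamus and monoamine markers 16 and 17 were called lower and 0 higher. Of 12 oligodendrocyte markers 9 and 6 were called lower and 0 higher, at summed levels of 5145 and 5356 RPM in CxH and MH and 9736 and 7870 in CxWT and MWT.

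The 12 astrocyte markers, of interest because astrocytes can carry GluN2C, summed to 4342 and 3541 RPM in CxH and MH, and to 3436 and 4164 RPM in CxWT and MWT. The calls below stand beside 9.46% of all genes called higher and 11.5% lower in CxH vs. CxWT. In MH vs. MWT these shares were 12.3% and 12.7%. In CxH vs. CxWT *Gfap* and *Slc1a2* were called higher and *Aqp4* and *Slc4a4* lower, and in MH vs. MWT *Aqp4*, *Gfap*, *Slc4a4* and *S100b* were called lower, by 0.79 to 1.30 on the log2 scale. Microglia markers, 10 genes, had 6 called higher and 0 lower in CxH vs. CxWT, and 0 higher and 3 lower in MH vs. MWT, namely *Aif1* at -1.06, *C1qa* at -1.02 and *Tyrobp* at -1.50. Of 7 oligodendrocyte precursor markers, *Bcas1* (-0.73) and *Nkx2-2* (-1.03) were called lower in CxH vs. CxWT and *Bcas1* (-0.79) in MH vs. MWT. In MH vs. MWT that is 1 of 7, near the share over all genes. Cerebellar granule neurons, the best known site of *Grin2c*, had 4 of their 10 markers in the table, at summed levels of 32.0 and 35.2 RPM in CxH and MH and 70.1 and 61.2 RPM in CxWT and MWT. *Cbln1* was called lower in both (-2.46 and -2.37), *Zic2* lower in CxH vs. CxWT (-1.10) and *Neurod1* higher in MH vs. MWT (1.36). The sum rests on *Cbln1*, *Neurod1*, *Pax6* and *Zic2* only and does not show that cerebellar cells were present. *Gabra6*, *Cbln3*, *Etv1*, *Fat2*, *Barhl1* and *Eomes* were not in the table. *Cbln1* moved in the direction of the thalamic list and *Neurod1* in that of the cortical list. The part of cerebellar cells in the level of *Grin2c* was not tested.

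The marker genes called within a genotype label were these. In CxH vs. MH, where 2.43% of all genes were called higher and 1.06% lower, they were *Adora2a* at 0.80 of the striatal list, *Slc17a6* at -1.05 and *Lhx9* at -0.81 of the thalamic list, *Gfap* at 1.25 of the astrocyte list, and, on at most 36 reads, *En2* and *Agrp* higher and *Tph2* and *Oxt* lower of the midbrain list. In CxWT vs. MWT, where 5.43% and 2.11% were, they were *Nrgn* at 0.94, *Spink8* at -1.37, *Zbtb20* at 1.09, *Pou3f1* at 0.81, *Lef1* at 0.84, *En1* at 0.90, *Oxt* at 1.29, *Gfap* at -0.99, *Mag* at 0.80 and *Nkx2-2* at 1.02. The microglia genes *Aif1*, *C1qa*, *C1qb*, *Tyrobp* and *Trem2* were called higher in CxH vs. MH and lower in CxWT vs. MWT.

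The members fell into pairs by their pattern over the libraries, measured as the Euclidean distance between log2 RPM centred on the mean of the 4 libraries, which share depth and scaling. *Grin2a* and *Grin2b* were 0.25 apart, *Grin1* and *Grin2c* 0.33, and *Grin2d* and *Grin3a* 0.72, while *Grin2a* and *Grin2d* were the farthest apart at 2.72. These distances were taken without the GC and length correction. In CxWT vs. MWT it took *Grin1*, *Grin2c* and *Grin2d* from 0.68, 1.11 and 0.97 to 0.22, 0.46 and 0.12. Whether the pairs hold after it was not tested. The pattern of *Grin1* was nearest to *Rexo1* (distance 0.025), *Prag1* and *Srrm3* among the 11010 genes that reached 100 reads in each library. *Grin2a* was nearest to *Adcy1*, a calcium-stimulated adenylyl cyclase (0.12), *Sowaha* and *Phactr1*. *Grin2b* was nearest to *Pgbd5* (0.049), and *Pak6* was also among its 3 nearest.

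For *Grin2c* the nearest were *Bicra* (0.041), *Dyrk1b* and *N4bp3*. *Grin2d* was nearest to *Slc6a9* (0.13), the glycine transporter described above, then *Lef1*, a transcription factor of the thalamic list, and *Zfp423*. *Grin3a* was nearest to *Tenm1* (0.045), *Scn1a*, a neuronal sodium channel, and *Sox2ot*. With 4 libraries such likeness is a description only.

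**Figure D5:**
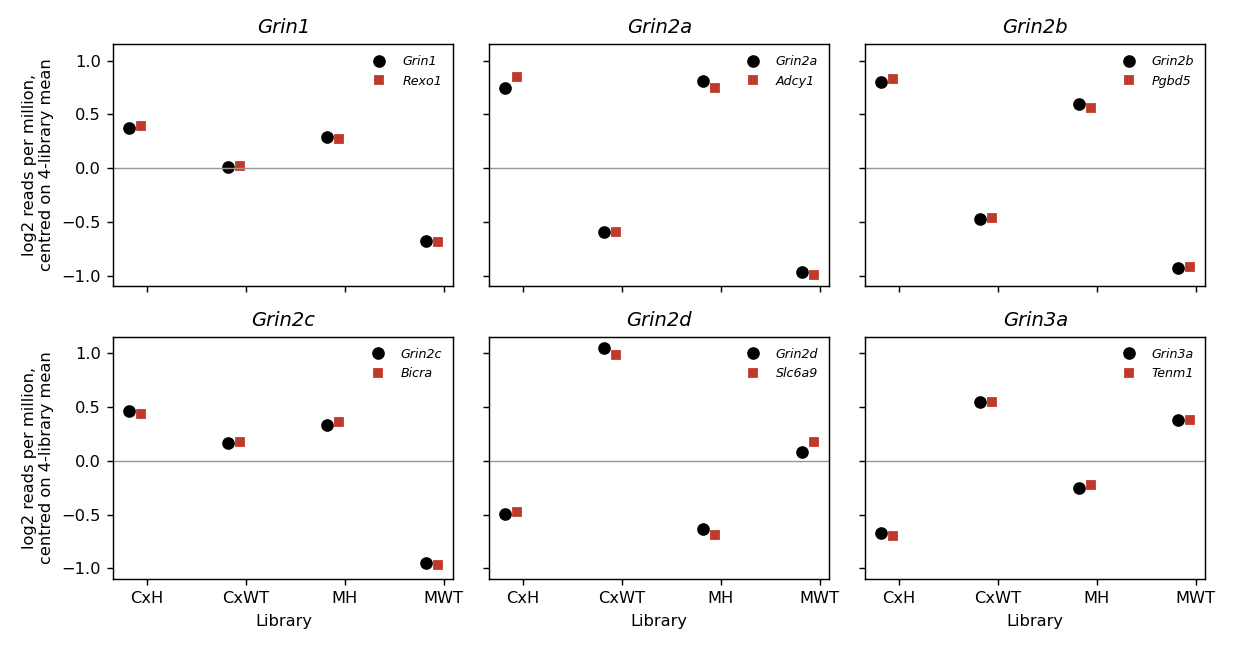
Level of each subunit (black) and of the gene most like it (red), as log2 RPM centred on the mean of the 4 libraries, without the GC and length correction. *Grin2a* and *Grin2b* lie above their mean in CxH and MH and below it in CxWT and MWT, *Grin2d* and *Grin3a* the reverse, and *Grin1* and *Grin2c* stand apart mainly through MWT.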

How the data were processed

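Polyadenylated RNA, pooled from 7 mice per genotype with 1 library for each area, was sequenced by the authors on a SOLiD 3 Plus instrument in a single run. They aligned reads to NCBI37/mm9 with PASS 2.10 (best hit, at most 2 mismatches, no gap) and deposited counts of reads aligned to a single gene, for genes of which more than 50% was covered. The annotation is not given in the sources used here, and uneven transcript coverage can shift levels per kilobase.

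RPM are counts divided by the aligned reads that the study gives for each library. All 12700 genes were tested by a likelihood ratio test on Poisson counts, written here after the study's DEGseq method and tested on simulated data, with no pseudocount. Intervals are 95% and cover counting error only. Lengths, GC content and coding sequences came from GENCODE vM1, matched by symbol for 11179 genes (88.0%). The GC and length correction was a cubic polynomial fitted over genes reaching 100 reads in each library.

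Members and lists were chosen with earlier results of these data known. Genes were named if they were members, *Ids*, the highest or lowest of a pathway list in CxH vs. CxWT or MH vs. MWT with 100 or more reads in a library of the pair, the 3 genes most like a member, called genes of a marker list with 3 or fewer calls, or list genes without reads. Genes behind any list count of 5 or fewer, *Dlg4*, *Slc6a3*, *Th* and *Gata2* were added after values were seen. Sequence stretches of the members and 1 gene that the naming rule gives are not reported here. A protein alignment had been planned, and coding sequences were aligned in its place. Alternatives were other scalings (column totals, TMM, DESeq2), 0.5 added to counts, the correction, Benjamini-Hochberg adjusted p, a log2 threshold of 1, an exact test with an assumed coefficient of variation of 0.1 or 0.2, a minimum of 100 reads, and other lengths. R 4.3.3 (edgeR 4.0.16, DESeq2 1.42.0) and Python 3.11.15 (Biopython 1.88, matplotlib 3.10.9, scipy 1.17.1, pandas 2.3.3, numpy 2.4.6) were used.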

Additional observations from a re-analysis of the deposited data

Results flagged for a closer look

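*Grin2a* had opposite signs in the comparison of areas under the 2 genotype labels. Its log2 ratio of Cx over M was -0.059 ± 0.052 (counting SE) in the Ids-ko libraries and 0.37 ± 0.099 in the wt libraries. *Grin3a* did so too, with -0.41 ± 0.097 in the Ids-ko libraries and 0.16 ± 0.077 in the wt libraries. With 1 library per condition the difference was not tested for either gene, and *Grin2a* in the Ids-ko libraries lay within its 95% counting interval of 0.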

How the results depend on the processing

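With 1 pool per condition no library could be left out, and variation between pools is unknown. No paired analysis was run, and each comparison sets 1 library against 1. A fit of area and genotype over all 4 libraries without their interaction would leave 1 residual degree of freedom and was not run, the areas of a genotype being from the same mice. Of 240 subunit ratios under alternatives, 225 kept direction and call, 10 lost the call, 1 gained it and 4 changed sign, all 4 with the GC and length correction: *Grin2c* in CxH vs. CxWT (-0.10), and *Grin1* (-0.10), *Grin2c* (-0.072) and *Grin2d* (-0.049) in CxH vs. MH. The 4 calls in CxH vs. CxWT were kept under every alternative. The 5 calls in MH vs. MWT became 3 with a log2 threshold of 1. The 2 calls in CxWT vs. MWT became 0 with the correction and 1 with the threshold of 1. *Grin2d* in MH vs. MWT was also not called with an assumed coefficient of variation of 0.2.

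The ratio of *Grin2a* to *Grin2b* in CxH, CxWT, MH and MWT was 0.68, 0.65, 0.82 and 0.69 per coding kilobase, 0.67, 0.64, 0.81 and 0.68 from reads, and 0.93, 0.88 and 1.11 in CxH, CxWT and MH with the median transcript length. The share of *Grin1* was 75.5%, 74.2%, 75.3% and 73.8% in CxH, CxWT, MH and MWT per coding kilobase, 73.8%, 72.9% and 73.3% in CxH, CxWT and MWT with the median length, and 68.5%, 68.0%, 68.3% and 67.6% from reads.

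Over all genes, calls higher and lower with the threshold of 1 were 691 and 710 in CxH vs. CxWT, 869 and 773 in MH vs. MWT, 109 and 34 in CxH vs. MH, and 194 and 101 in CxWT vs. MWT, against 1556 and 1614 in MH vs. MWT as reported, which became 1020 and 1053 with the correction. A coefficient of variation of 0.2 left 151 and 40 in CxH vs. MH and 359 and 128 in CxWT vs. MWT. A minimum of 100 reads left 157 and 68 in CxH vs. MH and 508 and 137 in CxWT vs. MWT.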
